A study of Mus musculus with 59 samples.

Results

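Baclofen activates the GABA-B receptor, and the comparison described here is bone marrow of mice that had 5 daily doses of it against marrow of mice that had 1 dose. The arrays were chosen by their titles, and they are the 12 of the 59 arrays in the series that hold marrow of baclofen mice, 8 after 5 daily doses and 4 after 1 dose. Another 8 marrow arrays, 4 after 1 dose and 4 after 5 daily doses of the vehicle, 0.5% methylcellulose, gave the change that the same days brought without the drug. All mice were of the B6C3F1 hybrid strain. In each group the tissue was taken 2 hours after the last dose, and the marrow came from the humerus. The amount of baclofen per dose, the sex and the age of the mice are not given in the sources used here. The labels number the arrays within a group but do not say that each came from its own mouse, so the p-values measure the spread between these samples.

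The GABA-B receptor is a G protein-coupled receptor made of the subunits encoded by Gabbr1 and Gabbr2. Through inhibitory G proteins it lowers cyclic AMP and opens potassium channels, and it is best known from the nervous system, where baclofen is used to relax muscle. Bone marrow makes granulocytes, red cells, platelets and B cells, and mature B cells also pass back into it from the blood.

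Each value below is a log2 signal intensity of 1 gene on an Affymetrix array, so a difference of 1 is a doubling. Markers of marrow cells were bright on all 20 marrow arrays: the mean of 17 neutrophil genes lay between 12.09 and 12.65 and that of 14 red cell genes between 10.70 and 11.61, while the mean of 10 liver cell genes lay between 5.14 and 5.75. Correlations between arrays ran from 0.989 to 0.997, and no arrays were identical. In whole marrow, fewer cells of a type and less RNA per cell cannot be told apart.

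Among the 12 baclofen arrays, 2 stood apart. The array labelled baclofen, 1 dose, replicate 3 carried skeletal muscle transcripts: 19 of 20 muscle genes were at their highest there of all 20 arrays, and their mean was 9.37, against 6.49 to 7.64 on the other 19. On the same array the mean of 13 mature B cell and plasma cell genes was 8.51, against 8.89, 8.90 and 8.92 on the other arrays of its group. The array labelled baclofen, 5 doses, replicate 8 was low in B cell precursor genes: 14 of 16 were at their lowest there, and their mean was 8.17, against 9.57 to 10.12 on the other 7 arrays of the group. Several counts and values that rest on these arrays are given with and without them.

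**Figure D1:**
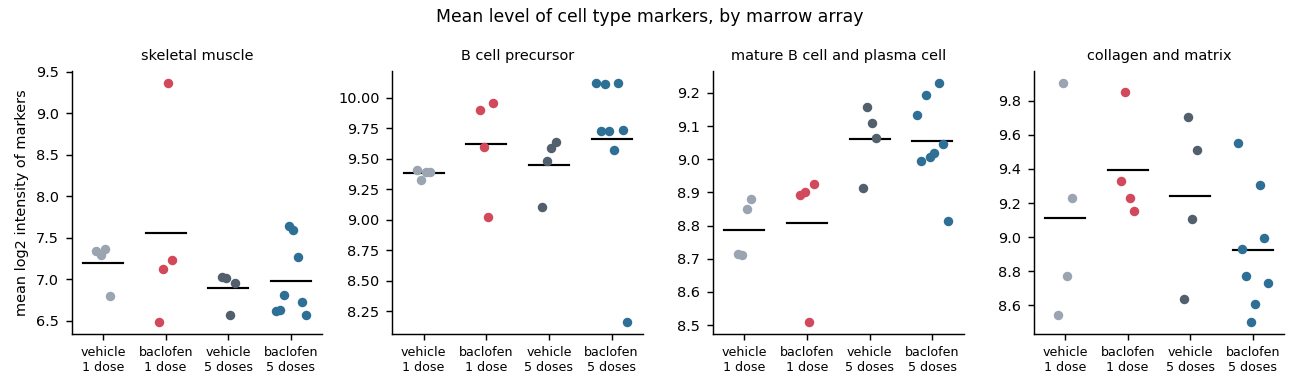
Mean log2 intensity of 4 sets of cell type markers on each of the 20 marrow arrays, with a point per array, a black line at each group mean and the 4 groups along the horizontal axis. The muscle mean of 1 array after 1 dose of baclofen is 9.37, and the B cell precursor mean of 1 array after 5 doses is 8.17.

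After 5 doses of baclofen, as compared with 1, a small set of genes was lower, led by Cirbp, Arrdc3 and the linker histone gene H1f2. A larger set was higher, among them Luc7l3, Mtf2 and Taf3, which act in splicing, chromatin and transcription. The B cell genes Ms4a1, Cxcr5 and Fcmr, the last named after its value was seen, were higher too, by 0.85, 0.72 and 0.63. In vehicle marrow these B cell genes were also higher after 5 doses than after 1, by 0.68, 0.33 and 0.54, though none passed there. Of 10916 genes tested, 68 passed an adjusted p of 0.05 (0.623%), of which 57 rose (0.522%) and 11 fell (0.101%). The test was limma's moderated test on the 20 marrow arrays, 2-sided, with Benjamini-Hochberg adjustment over all genes tested. The changes were small: 6 rises and 3 falls reached 1.5-fold, and Cirbp alone reached 2-fold. Clone or predicted-gene identifiers made up 4 of the 68, 1 of them a fall, and are counted but not described; the other 10 falls are all named below.

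Over the same days 0 of 10916 genes passed in vehicle marrow by limma (0%), where 510 had an unadjusted p under 0.05, as against 1389 in baclofen marrow. The smallest adjusted p in vehicle marrow was 0.906. The change in baclofen marrow minus the change in vehicle marrow, which tests whether the changes differ, also called 0 genes (0%). Without adjustment 559 genes had a p under 0.05 in limma's test of it, and the smallest adjusted p was 0.391, for Lyrm9. With arrays weighted by quality, limma called 523 genes in vehicle marrow and 45 in that difference. The standard error of a change had a median of 0.07 in baclofen marrow, 0.08 in vehicle marrow and 0.11 for the difference between them.

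The number of genes called moved widely with single arrays. It was 13, 19 and 27 without baclofen 1-dose replicate 1, 2 and 4, and 116 without replicate 3, the array with muscle transcripts; 52 of the 68 also passed without that array, all 11 falls and 41 of the rises. It was 44, 30 and 125 without baclofen 5-dose replicate 2, 3 and 7, and 57 without both of the arrays that stood apart. Leaving out 5-dose replicates 5 to 8 gave 70 calls, and leaving out replicates 1 to 4 gave 0, with 964 genes at an unadjusted p under 0.05. Of the 32 called genes named here, 6 passed whichever array was left out (Arrdc3, H1f2, Cxcr5, Fcrl1, Luc7l3 and Prdm15), and the other 26 lost their call without at least 1 array, most often 1-dose replicate 1 (23 genes), 2 (20 genes) or 4 (17 genes) or 5-dose replicate 3 (14 genes). Without 5-dose replicate 8, the array low in B cell precursor genes, the calls lost were those of Cep83os, Kat6a, Tcf7l2 and Zfp397.

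The calls also moved with the choice of probe set. A probe set is a group of probes read as 1 value, and the one with the highest mean stood for a gene that has several. Of the 32 called genes named, 20 have several; with these averaged 19 were still tested and 15 of the 19 lost the call. The change moved by over 1.5 times for 12. These were Lyrm9, Parp11, Zfp397, Frmd4b, Tcf7l2, Rbm5 and Kat6a, which are given below with their averages, and Thap2 (0.34, adjusted p 0.113), Fcrl1 (0.32, adjusted p 0.0780), Luc7l3 (0.27, adjusted p 0.0882), Mtf2 (0.20, adjusted p 0.0878) and Cd40 (0.22, adjusted p 0.224). The averages of H1f2, H2ac19, Ms4a1 and Senp7 kept the call.

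Across all genes tested, the change in baclofen marrow and the change in vehicle marrow, which share no arrays, had a Pearson correlation of 0.228 and a Spearman correlation of 0.225. This is across genes, which are not independent replicates. The 57 rises had a median change of 0.34 in baclofen marrow and of 0.04 in vehicle marrow. The 11 falls had medians of -0.38 and -0.12. For comparison the median of all genes tested was 0.01 in either.

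**Figure D2:**
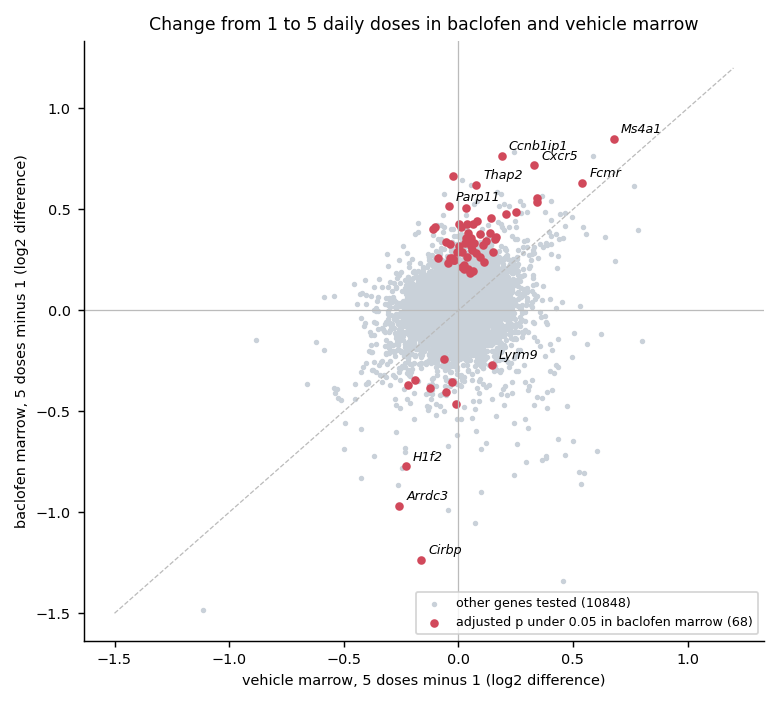
Each point is a gene, with its log2 difference between 5 and 1 daily doses in vehicle marrow on the horizontal axis and in baclofen marrow on the vertical axis; the dashed line marks equal change. The 68 genes past the threshold are red, and Ms4a1 (0.68 in vehicle, 0.85 in baclofen) lies near the line of equal change while Cirbp (-0.16 and -1.24) lies far from it.

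Cirbp encodes an RNA-binding protein whose transcript is known to rise in mild cold. Its log2 level after 1 dose of baclofen was 10.14, 10.13 and 10.20 in replicates 1, 2 and 4 and 9.53 in replicate 3. After 5 doses its lowest, median and highest levels were 8.12, 8.75 and 9.50, so that no 5-dose array reached the lowest of the 1-dose arrays. In vehicle marrow Cirbp lay at 7.93, 7.81, 7.13 and 7.47 after 1 dose and at 7.43, 7.17, 7.31 and 7.78 after 5, with the groups overlapping. The gene thus fell by 1.24 ± 0.22 on the log2 scale (SE, 8 against 4 arrays), 2.35-fold, with an adjusted p of 0.0140 by limma, beside a vehicle change of -0.16 ± 0.25. It was still above vehicle after 5 doses: the difference from vehicle was 2.41 after 1 dose and 1.34 after 5, with adjusted p-values of 3.74e-05 and 0.00273. These differences share the baclofen arrays with the change from 1 to 5 doses. The call on the change was lost without 1-dose replicate 1, 2 or 4 (adjusted p 0.0676, 0.0543 and 0.0511).

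Arrdc3 encodes an arrestin-domain protein that takes part in the turnover of beta-adrenergic receptors, and it had the smallest adjusted p of the named genes. After 1 dose of baclofen its levels were 10.87, 10.73, 10.11 and 10.96, the third being the array with muscle transcripts. After 5 doses the lowest, median and highest were 9.44, 9.68 and 10.04, all below the 1-dose arrays. Vehicle marrow gave 9.58, 9.57, 9.60 and 9.62 after 1 dose, and 9.20, 9.21, 9.19 and 9.75 after 5, where the last array overlapped the other group. Arrdc3 fell by 0.97 ± 0.14 (adjusted p 0.00503), and the vehicle change was -0.26 ± 0.16 (adjusted p 0.906). After 5 doses the difference from vehicle was 0.37 with an adjusted p of 0.0946, against 1.08 and 0.000918 after 1 dose.

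H1f2, a linker histone gene, stood at 12.69, 12.78, 12.53 and 12.82 after 1 dose of baclofen. After 5 doses it ran from 11.64 through a median of 11.89 to 12.30, with no overlap. It fell by 0.77 ± 0.13 (adjusted p 0.0118), beside -0.23 ± 0.15 in vehicle marrow. Of its other probe sets, the brighter changed by -0.71 and the dim one by -0.14. The core histone gene H2ac19 fell by 0.35 ± 0.06 (adjusted p 0.0195), beside -0.19 in vehicle; its sequence is close to that of other H2A genes, so the signal may not be its own.

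The other falls were smaller. Klf10, a zinc-finger transcription factor gene induced by TGF-beta, stood at 9.52, 9.47, 9.24 and 9.69 after 1 dose and between 8.98 and 9.22, median 9.12, after 5. It fell by 0.37 ± 0.07 (adjusted p 0.0140), and its vehicle arrays went from 9.01 to 9.19 after 1 dose to 8.78 to 8.93 after 5, a change of -0.22 ± 0.08 that did not pass (adjusted p 0.906). Slc25a16, which encodes a mitochondrial carrier, fell by 0.36, and Tmem203, a membrane protein gene, fell by 0.38. Dedd2, a death-effector-domain gene, fell by 0.24 and Cep83os, a transcript opposite Cep83, by 0.47. Lyrm9 fell by 0.27 ± 0.05, while its vehicle change was 0.15, and the difference of -0.42 had an interval of -0.58 to -0.25. Of its other probe sets, one nearly as bright (6.62, against 6.78) changed by -0.09 and a dimmer one by 0.13, and the average of the 3 changed by -0.08 (adjusted p 0.564). In all 10 named falls no 5-dose array reached the lowest 1-dose array. Over all genes tested, 0.54% were arranged that way in baclofen marrow (8 against 4 arrays) and 1.06% in vehicle marrow (4 against 4). With unequal numbers of arrays these shares cannot be set against each other. The falls were called on these same arrays, so their lack of overlap is no separate evidence.

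The promoters of the 3 genes that fell most are shown. These genes were picked as called members of gene lists with the largest changes in either direction, where a promoter was at hand. Of the gene lists, 6 held 1 called member each. Of the 4 such genes with the largest changes, Cirbp, Arrdc3, H1f2 and Ms4a1, 3 were matched in the RefSeq promoter table of build GRCm38.p6. Each window runs from 250 bases before to 50 bases after the annotated start, on the plus strand, and capitals mark the letters CCAAT, or their reverse complement ATTGG. The windows are chr10:80167589-80167888 for Cirbp, chr13:80883134-80883433 for Arrdc3 and chr13:23738557-23738856 for H1f2, the first that the table lists for each gene.
Cirbp: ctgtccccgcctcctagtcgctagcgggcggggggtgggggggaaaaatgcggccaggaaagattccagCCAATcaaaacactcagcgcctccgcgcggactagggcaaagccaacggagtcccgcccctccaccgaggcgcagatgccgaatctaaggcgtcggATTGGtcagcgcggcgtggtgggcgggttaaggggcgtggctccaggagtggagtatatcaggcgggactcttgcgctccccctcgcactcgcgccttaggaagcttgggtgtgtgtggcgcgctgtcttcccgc
Arrdc3: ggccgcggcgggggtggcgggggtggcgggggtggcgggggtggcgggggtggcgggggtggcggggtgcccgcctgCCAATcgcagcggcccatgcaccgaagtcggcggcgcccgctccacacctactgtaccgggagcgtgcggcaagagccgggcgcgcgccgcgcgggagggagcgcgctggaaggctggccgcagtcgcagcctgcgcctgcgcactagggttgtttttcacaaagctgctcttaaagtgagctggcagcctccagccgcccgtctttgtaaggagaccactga
H1f2: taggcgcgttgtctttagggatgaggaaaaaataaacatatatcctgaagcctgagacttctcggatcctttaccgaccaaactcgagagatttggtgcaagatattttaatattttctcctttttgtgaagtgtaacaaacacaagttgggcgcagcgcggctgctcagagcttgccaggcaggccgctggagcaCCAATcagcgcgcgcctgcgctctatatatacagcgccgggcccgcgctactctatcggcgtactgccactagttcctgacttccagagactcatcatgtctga
CCAAT was present 2 times in the Cirbp window shown and 1 time in each of the other windows shown. The table lists a second window for Cirbp, where CCAAT had no match, and 2 more for Arrdc3, of which 1 overlaps the window shown and holds 1 match and the other holds 0. It was found in 12289 of the 32851 windows in the table (37.4%), so that its presence is common. The E-box CACGTG, the cyclic AMP element TGACGTCA, the GATA motif AGATAA, the core of the interferon-stimulated element and the full palindromic glucocorticoid element, searched on both strands, had no match in these 3 windows. The shares of all windows that held them were 7.15%, 1.79%, 11.2%, 3.44% and 0.009%.

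Ms4a1 and Cxcr5, both genes of B cells, were among the 3 largest named rises. Ms4a1 encodes CD20, a surface protein of B cells. Its levels were 9.77, 9.40, 8.90 and 9.66 after 1 dose of baclofen, the third again from the array with muscle transcripts, and 9.93, 10.28 and 10.69 as lowest, median and highest after 5 doses, without overlap. Vehicle marrow gave 9.34, 9.57, 9.72 and 9.78 after 1 dose and 9.87, 10.50, 10.39 and 10.36 after 5, also without overlap. Ms4a1 rose by 0.85 ± 0.16 in baclofen marrow (1.80-fold, adjusted p 0.0218), and in vehicle marrow the difference was 0.68 ± 0.19 (adjusted p 0.906). The difference between these changes was 0.17, with a 95% interval of -0.35 to 0.69. Without the array with muscle transcripts Ms4a1 rose by 0.67 (adjusted p 0.0470), and the difference between the changes was -0.01. The call was lost without 1-dose replicate 2 (adjusted p 0.0702).

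Cxcr5, the chemokine receptor that brings B cells into lymphoid follicles, was at 6.26, 6.32, 6.05 and 6.41 after 1 dose and at 6.69, 6.95 and 7.32 as lowest, median and highest after 5, without overlap. It rose by 0.72 ± 0.12 (adjusted p 0.0118). The vehicle arrays ran from 6.05 to 6.70 and from 6.57 to 7.02, a change of 0.33 ± 0.14. Fcrl1, an Fc receptor-like gene of B cells, rose by 0.49 ± 0.08 (adjusted p 0.00721), beside 0.25 ± 0.09 in vehicle marrow.

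Fcmr and Cd40 were named after their values had been seen, since they are B cell genes outside the naming rule. Fcmr, the receptor for IgM, was 8.84 to 9.58 on the 1-dose arrays and 9.67 to 10.31 on the 5-dose arrays, and it rose by 0.63 ± 0.13 (adjusted p 0.0250), beside 0.54 ± 0.15 in vehicle. Without the array with muscle transcripts its change was 0.49 (adjusted p 0.0612), and the call was also lost without 1-dose replicate 1 or 2 or 5-dose replicate 3 (adjusted p 0.0791, 0.0767 and 0.0539). Cd40, a receptor through which T cells stimulate B cells, rose by 0.36 ± 0.07 (adjusted p 0.0260), beside 0.16 in vehicle.

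Of the list of mature B cell and plasma cell genes, 1 of 10 tested (Ms4a1) rose past the threshold in baclofen marrow, where 0.522% of all genes did. In that list 0 fell past it in baclofen marrow, and 0 passed in vehicle marrow. The median of the list was 0.13 in baclofen and 0.31 in vehicle, against 0.01 in either for all genes tested, and 8 and 9 of 10 members lay above 0. Bank1, a B cell scaffold gene, gave 0.45 (adjusted p 0.0633) in baclofen and 0.41 in vehicle, and Fcer2a, the low-affinity IgE receptor, gave 0.52 (adjusted p 0.0810) and 0.28. The plasma cell genes Jchain and Xbp1 gave 0.08 and -0.09. Of 16 genes of B cell precursors, 0 passed, with medians of 0.06 in baclofen and 0.11 in vehicle. Without the array with muscle transcripts 0 passed as well, and the baclofen median was -0.15. In this list Rag1, part of the enzyme that joins antigen receptor genes, gave 0.44 ± 0.44, and Vpreb1, part of the surrogate light chain, gave -0.39 ± 0.53. The value of Vpreb1 was 6.62 on 5-dose replicate 8 and 10.13 to 10.73 on the other 7 arrays, and without that array its change was 0.09. Rag1 was at 7.02 on 5-dose replicate 8 and at 9.43 to 10.76 on the other 7. Without the array with muscle transcripts Rag1 changed by 0.19.

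**Figure D3:**
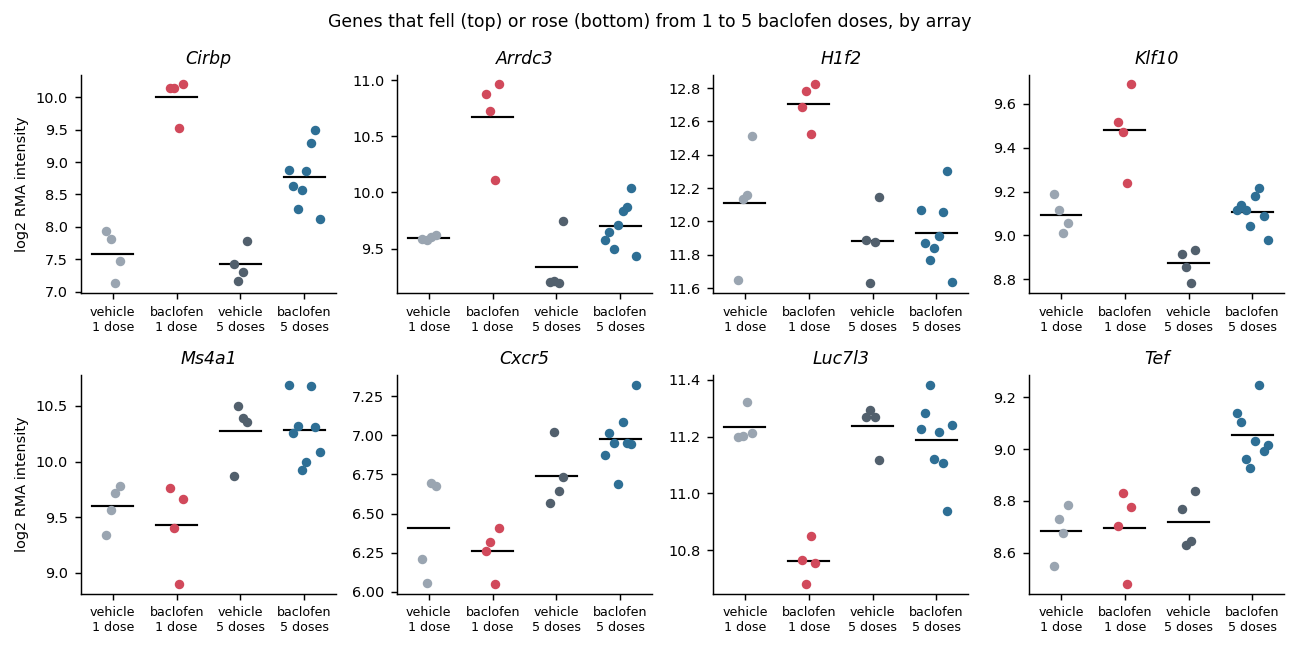
Log2 intensity of 4 genes that fell (top) and 4 that rose (bottom) between 1 and 5 doses of baclofen; each point is an array, the black line is the group mean, and the horizontal axis gives the 4 marrow groups. Cirbp falls from 9.53 to 10.20 after 1 dose to 8.12 to 9.50 after 5, while Ms4a1 is higher after 5 doses than after 1 in vehicle marrow as well.

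Several named rises were of genes that lay below vehicle after 1 dose of baclofen and nearer to it after 5. Luc7l3, which encodes a splicing factor related to yeast Luc7, was at 10.77, 10.68, 10.85 and 10.76 after 1 dose of baclofen. After 5 doses it was at 10.94, 11.22 and 11.38 as lowest, median and highest, without overlap. The 8 vehicle arrays lay between 11.12 and 11.32. Luc7l3 rose by 0.43 ± 0.06 (adjusted p 0.00690), beside 0.00 ± 0.07 in vehicle marrow, and a second, dimmer probe set of it changed by 0.37 while the dimmest changed by 0.02.

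Mtf2, a partner of the Polycomb complex PRC2, rose by 0.39 ± 0.07 (adjusted p 0.0189), with 9.75 to 10.13 after 1 dose and 10.09 to 10.50 after 5, which overlapped through 1-dose replicate 3 alone. Of its 5 other probe sets, the next brightest changed by 0.20 and the others by 0.00 to 0.39. Taf3, a subunit of the general transcription factor TFIID, rose by 0.43 ± 0.09 (adjusted p 0.0241). Prdm15, a zinc-finger gene of the PRDM family, rose by 0.43 ± 0.07 (adjusted p 0.00744) and was between 6.85 and 7.05 after 1 dose and between 7.22 and 7.56 after 5. Senp7, a protease that removes SUMO chains, rose by 0.41, and the zinc-finger gene Zfp397 by 0.44. The vehicle changes of these 5 genes lay between -0.10 and 0.08. The call on Zfp397 was lost without any of 12 single arrays. Its other probe sets changed by 0.08 and -0.12, and the average of the 3 by 0.13 (adjusted p 0.330).

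Thap2, a gene with a THAP DNA-binding domain, rose by 0.62 ± 0.13 (adjusted p 0.0248), from 6.48, 6.90, 7.28 and 6.77 after 1 dose to 7.14 to 7.68 after 5, and these ranges overlapped. It remained below vehicle after 5 doses (difference -0.42, adjusted p 0.0393). Parp11, a mono-ADP-ribosyltransferase gene, rose by 0.52 ± 0.09 (adjusted p 0.0140) on its brighter probe set, but its dimmer probe set changed by -0.67, and the mean of the 2 by -0.08. Ccnb1ip1, a ubiquitin ligase gene known from meiosis, rose by 0.77 ± 0.15 (adjusted p 0.0241) from 6.34 to 6.76 after 1 dose to 7.07 to 7.54 after 5. Chac2, which degrades glutathione, rose by 0.41, and Frmd4b, a scaffold gene, by 0.40. The 4 other probe sets of Frmd4b changed by 0.02 to 0.13, and the average of the 5 by 0.14 (adjusted p 0.447). Its 1-dose arrays (9.23 to 9.61) and 5-dose arrays (9.49 to 9.94) overlapped. Over the 57 rises the median difference from vehicle was -0.32 after 1 dose and -0.04 after 5, and over the 11 falls it was 0.45 and 0.20. These differences share the baclofen arrays with the change itself, so they describe the levels and are no separate evidence.

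Of the 57 rises, 46 did not overlap between the 5-dose and the 1-dose arrays. This arrangement was found in 2.09% of all genes tested in baclofen marrow (8 against 4 arrays) and in 1.12% in vehicle marrow (4 against 4). With unequal numbers of arrays these 2 shares cannot be set against each other. The rises were called on these same arrays, so their lack of overlap is no separate evidence. Rises outside the naming rule, named after their values were seen, included Hdac9, a histone deacetylase gene (0.54), Tcf7l2, a transcription factor of Wnt signalling (0.46), Rbm5, a splicing regulator (0.29), Ncbp2, a subunit of the nuclear cap-binding complex (0.29), and Kat6a, a histone acetyltransferase gene (0.23). The vehicle change of Hdac9 was 0.34, and those of the other 4 ran from -0.05 to 0.15. Without the array with muscle transcripts Hdac9 and Tcf7l2 lost their calls (0.38 and 0.33, adjusted p 0.0645 and 0.112). The call was lost without any of 15 single arrays for Tcf7l2, 10 for Kat6a and 7 for Hdac9. With probe sets averaged, Tcf7l2 gave 0.19, Rbm5 0.075 and Kat6a 0.10, with adjusted p-values of 0.317, 0.804 and 0.516.

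Tef, a transcription factor whose level follows the circadian clock, was at 8.70, 8.83, 8.48 and 8.78 after 1 dose of baclofen. After 5 doses it was at 8.93, 9.03 and 9.25 as lowest, median and highest, above all 12 other marrow arrays. It rose by 0.36 ± 0.07 (adjusted p 0.0225), beside 0.03 ± 0.08 in vehicle, and it differed from vehicle by 0.01 after 1 dose and by 0.33 after 5 (adjusted p 0.951 and 0.00888). The call was lost without 1-dose replicate 1 or 3 (adjusted p 0.0792 and 0.0507). The other probe sets of Tef, both dimmer, changed by 0.295 and 0.103, and the average of the 3 by 0.25, which lost the call (adjusted p 0.0726). Tef was the only 1 of 18 clock genes tested to rise past the threshold, where 0.522% of all genes did, and 0 fell past it. Of the 18, 14 had a change above 0. The list had a median of 0.11, and of its other members Dbp gave 0.62 (adjusted p 0.164), Per2 gave 0.37 (adjusted p 0.150) and Per1 gave -0.29 (adjusted p 0.551).

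Several genes that stood above vehicle after 1 dose were still above it after 5. Ddit4, an inhibitor of mTORC1, was at 10.94, 10.36, 9.96 and 10.65 after 1 dose and at 9.36, 10.09 and 11.01 as lowest, median and highest after 5, against 7.47 to 8.94 on the 8 vehicle arrays. The baclofen groups overlapped, and the change was -0.27 ± 0.27 (95% interval -0.82 to 0.29, adjusted p 0.735). The clock gene Per1 was at 9.59, 9.66, 8.98 and 9.51 after 1 dose and at 8.48, 9.20 and 9.48 after 5, with a change of -0.29 and an interval of -0.68 to 0.10. Neither vehicle group of Per1 exceeded 7.91.

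Tsc22d3, a glucocorticoid-induced gene also called Gilz, changed by -0.06 (interval -0.35 to 0.22), Klf9, a transcription factor gene, by -0.34 (interval -0.74 to 0.06), and Pik3ip1, an inhibitor of PI3 kinase, by -0.19 (interval -0.52 to 0.15). These 3 were named after their values were seen. In each of these 5 genes the adjusted p of the change was 0.483 or more. Dusp1, a phosphatase of MAP kinases, had a larger difference: it was at 11.63, 11.76, 11.11 and 11.64 after 1 dose and at 10.29, 10.78 and 11.42 after 5. Its change of -0.70 ± 0.19 did not pass (adjusted p 0.0817), but it did without the array with muscle transcripts (-0.84, adjusted p 0.0441). Fos gave -0.60 ± 0.15 (adjusted p 0.0661) and -0.70 without that array (adjusted p 0.0406).

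**Figure D4:**
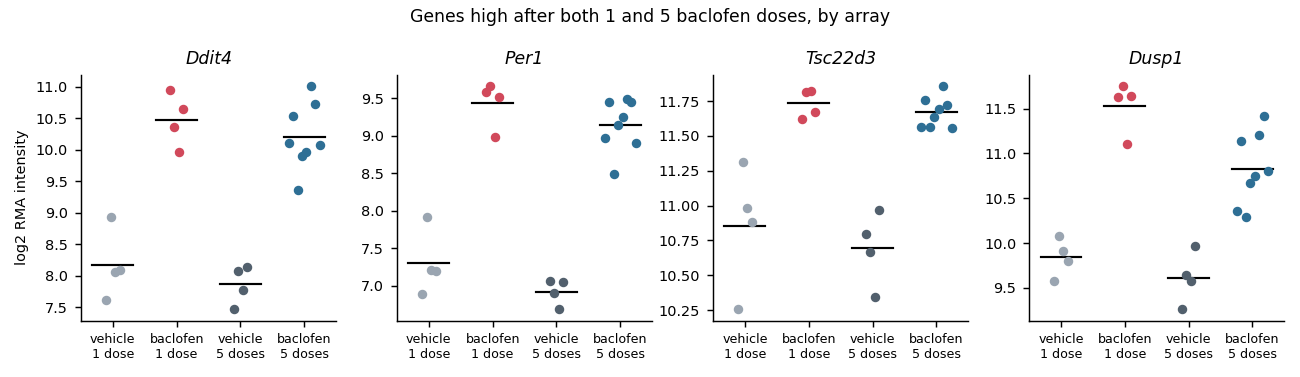
Log2 intensity of Ddit4, Per1, Tsc22d3 and Dusp1 on each marrow array, with a black line at the group mean. Both baclofen groups lie above both vehicle groups for each gene, and the 1-dose and 5-dose baclofen arrays overlap.

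Of 25 genes of the glucocorticoid response, 0 passed by limma between 1 and 5 doses of baclofen. Against vehicle, 11 of the 25 were higher past the threshold after 1 dose and 14 after 5, where 339 and 671 of 10916 genes were. Past the threshold in the lower direction were 2 of the 25 each time, where 464 and 429 of all genes were. With 4 baclofen arrays after 1 dose and 8 after 5, the counts after 1 and 5 doses are not on an equal footing. From 1 to 5 doses the median change of the 25 was -0.18 in baclofen and -0.06 in vehicle, and 5 of the 25 lay above 0 in baclofen. Without the array with muscle transcripts 86 of 10916 genes rose (0.788%), 0 of the 25 among them, and 30 fell (0.275%), 3 of the 25 among them: Dusp1, the cell cycle inhibitor Cdkn1a (-0.58, adjusted p 0.0440) and Txnip, which binds thioredoxin (-0.33, adjusted p 0.0441). Without that array Fos, the pro-apoptotic gene Bbc3 (-0.31, adjusted p 0.0375) and the chemokine receptor gene Ccr9 (-0.33, adjusted p 0.0277) fell as well. Bbc3, Ccr9 and Txnip were named after these values were seen.

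Of 52 gene lists, 46 had no member past the threshold and 6 had 1 each. Of the 673 listed genes tested, 3 rose and 3 fell past the threshold, where 0.522% and 0.101% of all genes tested did. A single call thus says little about a list. In the list of mTORC1 and FOXO growth control, Arrdc3 fell and the other 20 genes tested did not pass. Cirbp was the only 1 of 5 cold-inducible RNA-binding genes tested to fall past the threshold. Clk1 and Rsrp1, which act in splicing, gave 0.24 and 0.26 with adjusted p-values of 0.339 and 0.461. Of 13 genes of chemokines and their receptors tested, Cxcr5 alone rose past the threshold. The histone list had only 2 genes tested, H1f2 and H2bc21, and the latter gave -0.19 (adjusted p 0.674). Of 8 genes tested of the GABA-B receptor, GABA metabolism and potassium channels, 0 passed. Gabbr1 itself gave 0.12 ± 0.08 (interval -0.04 to 0.28), with 7.67, 7.73, 7.71 and 7.66 after 1 dose and 7.65 to 8.02 after 5.

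Red cell lists had small medians of opposite sign in the 2 treatments, with 0 members called in either. In baclofen marrow the median was 0.09 for 13 membrane and globin genes, 0.13 for 11 transcription factor and receptor genes and 0.05 for 11 genes of haem synthesis. In vehicle marrow the same lists gave -0.15, -0.12 and -0.12. Klf1, the master regulator of red cell genes, changed by 0.27 ± 0.12 in baclofen marrow (adjusted p 0.328) and by -0.13 in vehicle, and Alas2, the first enzyme of haem synthesis in red cells, by 0.22 ± 0.10 (adjusted p 0.379) and 0.01. Without the array with muscle transcripts the 3 baclofen medians were 0.02, 0.10 and 0.00. Against vehicle, 11, 3 and 9 members of these lists were higher past the threshold after 5 doses of baclofen, and 0 after 1 dose. Of all 10916 genes tested, 671 and 339 were higher in that way. These counts share the baclofen arrays with the change from 1 to 5 doses. They are also not on an equal footing, with 8 baclofen arrays after 5 doses and 4 after 1. The list medians of the difference from vehicle were 0.19, 0.03 and 0.15 after 1 dose and 0.46, 0.22 and 0.39 after 5.

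Bone and matrix genes also had opposite signs. In baclofen marrow 0 of 9 osteoblast genes passed, and their median was -0.42, against 0.25 in vehicle marrow. Of 15 collagen and matrix genes 0 passed, with medians of -0.54 and 0.16. The spread between arrays was wide: Col1a1, the main collagen of bone, ranged from 13.02 to 14.23 after 1 dose of baclofen and from 10.27 to 14.19 after 5. The 10.27 was on 5-dose replicate 8, the array low in B cell precursor genes, and the rest of that group ran from 11.82 to 14.19. The change of Col1a1 over all arrays was -0.86 ± 0.57 (adjusted p 0.577). Col3a1 gave -0.82 ± 0.30 (adjusted p 0.240). The part that unequal bone and stroma between samples had in this was not tested.

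The 15 muscle genes tested had a median of -0.54 in baclofen marrow, which was 0.12 without the array that carried muscle transcripts, and 0 of them passed with or without it. Interferon genes had 0 of 26 called in either treatment and medians of -0.18 in baclofen and -0.16 in vehicle; Oasl1 gave -0.56 (adjusted p 0.0701) and -0.49. Platelet and megakaryocyte genes gave -0.18 and -0.15 over 14 genes, none called, and 21 genes of ribosome biogenesis gave 0.13 and 0.15, none called. In the heat shock list 0 of 14 passed. Hspa1b, an inducible HSP70 gene, gave -0.54 ± 0.16 (adjusted p 0.114). All 8 of its 5-dose arrays (5.91 to 6.43) lay below the 1-dose arrays (6.50 to 6.82), as was so for 0.54% of all genes tested. The gene was named for the size of its change, so this arrangement is no separate evidence. Its mean level of 6.55 was near 6.385, the lowest mean of a gene tested.

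**Figure D5:**
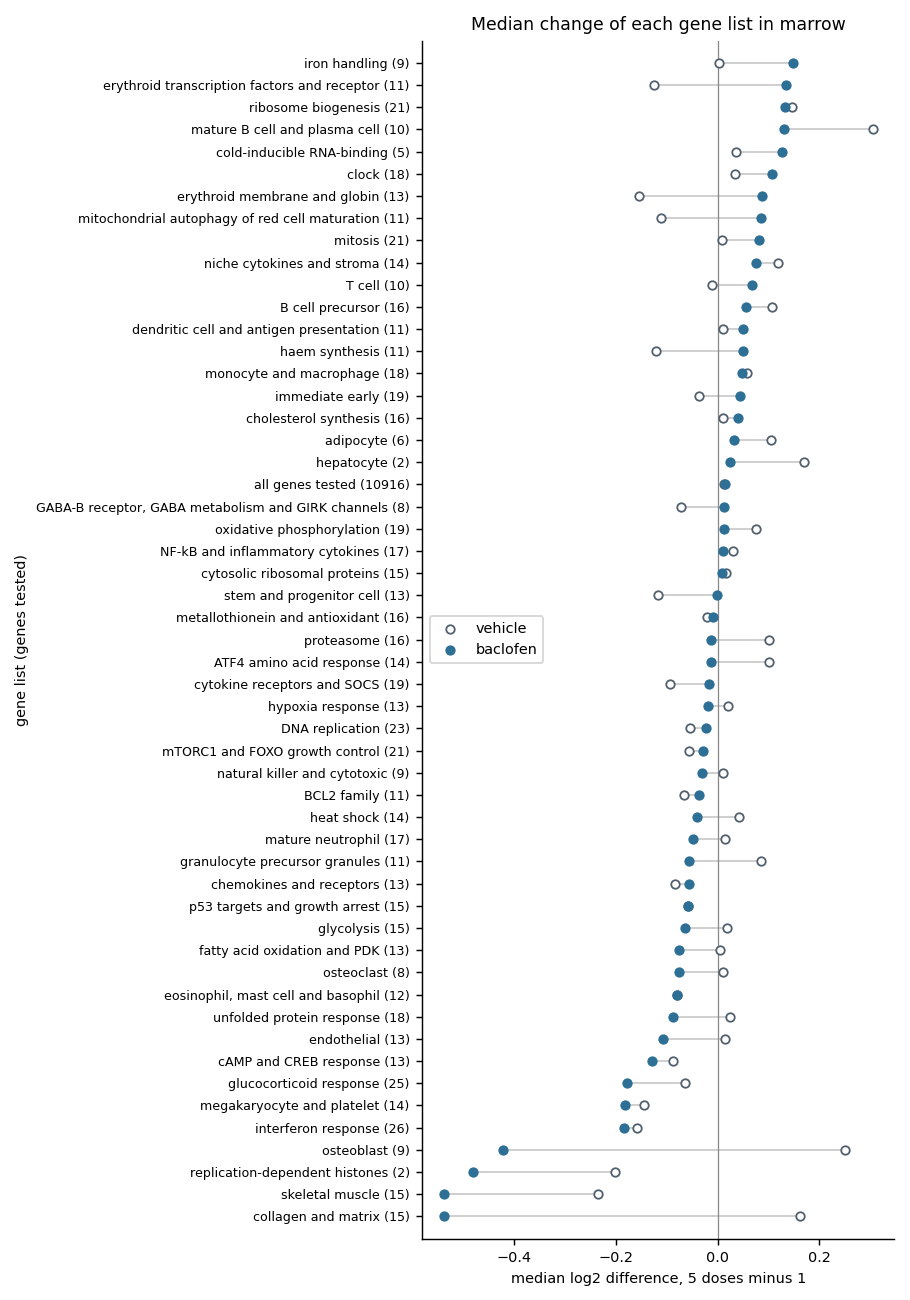
Median log2 difference between 5 and 1 daily doses for each gene list, in baclofen marrow (filled) and vehicle marrow (open), with the number of genes tested in brackets and all genes tested as reference. The collagen and osteoblast lists are at -0.54 and -0.42 in baclofen marrow and at 0.16 and 0.25 in vehicle marrow.

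The 8 arrays after 5 doses are numbered 1 to 8, while the other marrow groups hold 4 each, and the labels do not say whether the upper numbers are a second set of mice. Replicates 5 to 8 minus 1 to 4 called 5 of 10916 genes (0.0458%), all lower in the upper numbers: Rbm26, Psmc4, Tmed7, Pnrc2 and Dmxl1, by 0.33 to 0.45. None was among the 68 genes. The count was 13 without 5-dose replicate 2 and 8 without vehicle 1-dose replicate 1. It was 0 or 1 without any other 5-dose array, and 3 without vehicle 1-dose replicate 4, any vehicle 5-dose array or 1-dose baclofen replicate 1, 2 or 4.

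The change from 1 to 5 doses of baclofen was also compared with that in liver and spleen of the series, in a fit of all 12 groups and 59 arrays, with intensities set side by side only within a tissue. That fit called 54 genes in marrow (0.495%), 1164 in liver (10.7%) and 290 in spleen (2.66%). The 10916 genes tested were chosen by their level in marrow, so the liver and spleen shares are of those genes only. No vehicle change is given here for liver or spleen, so their baclofen changes stand without that background. The change differed from that in liver for 224 of 10916 genes (2.05%) and from that in spleen for 1 (0.00916%). Cirbp changed by -1.25 in liver and -0.99 in spleen, and the marrow change differed from these by 0.02 ± 0.34 and -0.25 ± 0.34 (adjusted p 0.989 and 0.947). H1f2 changed by -0.98 and -0.90, and Luc7l3 by 0.71 and 0.41, and neither differed from marrow past the threshold.

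Arrdc3, in contrast, changed by 0.72 in liver, from which marrow differed by -1.69 ± 0.46 (adjusted p 0.0335), and by -1.46 in spleen. The B cell genes Ms4a1, Cxcr5 and Fcmr had group means of 3.59 to 4.04 in baclofen liver, far below 6.385, the lowest mean of a gene tested in marrow, so a change in liver could not be seen and their difference from marrow holds the marrow change alone. In spleen, where they were bright, they changed by 0.03, 0.09 and 0.00, with adjusted p-values by limma of 0.953, 0.811 and 0.993. Their marrow change did not differ from the spleen change past the threshold (adjusted p 0.133, 0.372 and 0.133). Cdkn1a, which gave -0.50 in marrow, changed by -3.06 in liver, a difference of 2.56 ± 0.46 (adjusted p 0.000520). H2ac19 and Tcf7l2 also differed from liver (adjusted p 0.0393 and 0.00920). In this wider fit, where the spread is estimated over all 3 tissues, 12 of the 32 called genes named lost their call in marrow. These were Arrdc3 (adjusted p 0.208), Klf10, Slc25a16, Lyrm9, Dedd2, Ccnb1ip1, Taf3, Chac2, Frmd4b, Tef, Rbm5 and Kat6a, with adjusted p-values from 0.0583 for Slc25a16 to 0.720 for Chac2.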

How the data were processed

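RNA of bone marrow, liver and spleen was hybridised to 59 Affymetrix arrays. The authors deposited RMA signal intensity on a linear scale, and RMA and limma are named, per the submitters' processing notes, without versions; the genome build is not given in the sources used here. Marrow arrays had median intensities of 72.6 to 76.1, and the number of arrays limits the precision.

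The intensity values were taken as log2 without further normalization. Of 45101 probe sets, 34945 have 1 gene symbol in the platform annotation, 932 have several and 9160 none; those with several or none and 64 controls were left out. The probe set with the highest mean stood for a gene, which left 18193 genes, and the 10916 with a mean at or above the 40th percentile were tested. One linear model in limma 3.58.1 (R 4.3.3) held the 20 marrow arrays in 4 groups, and a second held all 59 arrays. Errors after ± are standard errors of the fit, and intervals are 95% intervals. The test was checked on simulated data.

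Named genes were the largest called changes that also passed without the array with muscle transcripts, the leading members of 52 gene lists, and Gabbr1, Ddit4, Per1 and Cirbp. Of 838 listed genes 752 had a value and 673 were tested. The members, lists and rule were chosen with earlier results of these data known. Alternatives covered the filter, the probe set rule, normalization, the variance model, covariates, thresholds and single arrays left out.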

Additional observations from a re-analysis of the deposited data

Results flagged for a closer look

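For each named gene and marker mean, the highest or lowest array of each marrow group was compared with the nearest other array of the group, 288 checks in all. A gap too large for the group's range was found in 29 of them, where chance gives about 1 in 20. Of these, 7 came from baclofen 5-dose replicate 8: it was the lowest array of its group for Vpreb1 (6.62, next 10.13), Rag1 (7.02, next 9.43), the B cell precursor mean (8.17, next 9.57), H2ac19 (9.90, next 10.03) and Ccr9 (7.06, next 7.19), and the highest for the granulocyte precursor mean (12.31, next 11.98) and the monocyte and macrophage mean (10.91, next 10.74). Baclofen 1-dose replicate 3, which carried muscle transcripts, was the lowest of its group for Cirbp (9.53, next 10.13) and for the mature B cell and plasma cell mean (8.51, next 8.89).

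Baclofen 5-dose replicate 7 was the lowest of its group for Parp11 (8.02), Zfp397 (7.17) and Frmd4b (9.49), and replicate 4 was the highest for the eosinophil, mast cell and basophil mean (9.32). Among the 1-dose baclofen arrays, replicate 4 was the lowest for Dedd2 (9.10) and Oasl1 (7.73), and replicate 2 was the highest for the osteoblast mean (9.89), the adipocyte mean (7.60) and the megakaryocyte and platelet mean (11.1). In the vehicle 5-dose group, replicate 4 was the highest for Arrdc3 (9.75, next 9.21) and the lowest for Luc7l3 (11.1), replicate 1 was the highest for Rbm5 (11.15, next 11.04), and replicate 3 was the lowest for the muscle mean (6.57). In the vehicle 1-dose group, replicate 3 was the lowest for Tmem203 (7.91) and the highest for Luc7l3 (11.3), replicate 2 was the lowest for Parp11 (8.32) and the highest for Fos (8.59), and replicate 4 was the highest for Frmd4b (9.80) and the lowest for the muscle mean (6.79) and the liver cell mean (5.14).

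The change from 1 to 5 doses of baclofen differed between marrow and liver, by limma's test of the difference over all 59 arrays, for 8 named genes. The marrow change minus the liver change was -1.69 for Arrdc3, -0.39 for H2ac19, -0.38 for Lyrm9, 0.72 for Ms4a1, 0.83 for Cxcr5, 0.64 for Fcmr, 0.72 for Tcf7l2 and 2.56 for Cdkn1a. Ms4a1, Cxcr5, Fcmr and Lyrm9 had liver means of 5.91 or less, below the lowest mean of a gene tested in marrow (6.385), so their differences hold little but the marrow change.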

How the results depend on the processing

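Of the 32 called genes named, leaving out 1 array gave 640 comparisons, of which 532 kept the call, 108 lost it and 0 reversed; of 531 comparisons under other settings 376 kept it, 154 lost it and 1 reversed. The number of genes called between 5 and 1 doses of baclofen, 68, became 45 with a filter at the 60th percentile, 27 with probe sets of a gene averaged, 121 with every probe set apart, 393 with array weights, 7 at an adjusted p of 0.01, 9 at 1.5-fold, 0 with 5-dose replicates 5 to 8 only, and 13 to 125 with 1 array left out; fewer features or samples enter some of these fits, and otherwise the cause was not tested. It stayed between 50 and 93 in other settings, but the genes moved more than the count: of the genes called, those among the 68 were 45 of 50 with no filter, 62 of 71 with quantile normalization, 54 of 55 with median centring, 65 of 65 with a robust trend, 64 of 93 with an RNA quality and 55 of 91 with a muscle covariate, 39 of 56 with only the groups compared, 35 of 70 with 5-dose replicates 1 to 4 only, and 29 of 57 without both arrays that stood apart. The vehicle count stayed 0 except for 523 with array weights. The count for the difference between the changes stayed 0 except for 45 with array weights and 1 without baclofen 5-dose replicate 7, a range of 0 to 1 with single arrays left out. The 5 genes that differed between 5-dose replicates 5 to 8 and 1 to 4 became 1 with no filter, 12 at the 60th percentile, 0 with the mean of probe sets, 29 with every probe set apart, 3 with quantile normalization, 49 with array weights, 8 and 9 with the RNA quality and muscle covariates, 0 at 0.01, 0 at 1.5-fold, 0 without both arrays that stood apart, and 0 to 13 with 1 array left out. Replicate numbers were shared between groups, but of 16 same-numbered pairs only 6 correlated above 0.1 (from -0.458 to 0.298), so they were not taken to pair the samples; with the replicate number as a block 67 genes were called, 32 of them among the 68. Directions turned for Parp11 with probe sets averaged (-0.076), for Vpreb1 with the replicate block (0.133), with 5-dose replicates 1 to 4 only (0.133) and without 5-dose replicate 8 (0.085; -0.635 to 0.085 over single arrays left out), and for Rag1 with replicates 5 to 8 only (-0.18). The difference from the vehicle change turned for Fcmr without both arrays that stood apart (-0.021) or without 1-dose replicate 3 (-0.056; to 0.192 over single arrays) and for Ms4a1 without the latter (-0.005; to 0.283). The setting without both arrays was chosen after seeing the data.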

Other observations

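Further gene lists are given here by their medians. In the 16 genes of the proteasome and the 19 of oxidative phosphorylation, the median change in baclofen marrow was -0.01 and 0.01, beside 0.10 and 0.08 in vehicle marrow. The 21 genes of mitosis had a median of 0.08 in baclofen and 0.01 in vehicle, with 19 and 14 of the 21 above 0, and the 23 genes of DNA replication had medians of -0.02 and -0.05. The 9 genes of iron handling had medians of 0.15 and 0.00, the 13 of the cyclic AMP and CREB response -0.13 and -0.09, and the 13 endothelial genes -0.11 and 0.01. No member of these lists was called in either treatment by limma, where 0.623% of all genes were called in baclofen marrow and 0% in vehicle; without the array that carried muscle transcripts 2 of the cyclic AMP list fell. The 17 genes of mature neutrophils and the 11 of granulocyte precursor granules had medians of -0.05 and -0.06 in baclofen marrow, and 0.02 and 0.04 without the array that carried muscle transcripts. The largest difference of any gene tested was that of the muscle gene Myh1 (-1.49, adjusted p 0.224), at 10.60 on that array and at 6.44, 8.70 and 8.81 on the other arrays of its group.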
